A study of Mus musculus with 10 samples.

Results

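The 3 hypothalamic RNA libraries labelled *Bbs5* mutant at 12 weeks, replicates B4, B5 and B6, are described here beside the 2 WT libraries of that age, replicates B1 and B3. They were chosen by their genotype and age labels and make up 3 of the 10 libraries of the series, 1 library per mouse. The study asks how loss of the ciliary protein BBS5 alters the hypothalamus of mice that become obese, before (5 weeks) and after (12 weeks) weight gain. Tissue punches of the hypothalamic core came from male mice on the C57BL/6J strain that were littermates, and were labelled WT or *Bbs5* mutant. For the mutant the methods, not the labels, name the knockout allele Bbs5^tm1b(EUCOMM)Wtsi, which holds a lacZ reporter. The 5 libraries of 5 weeks are WT replicates E1 and E3 and replicates E4, E5 and E6 labelled *Bbs5* mutant. One label field gives an age of 12 weeks for all 10 samples, and the ages used here follow the sample names.

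BBS5 is a subunit of the BBSome, a protein complex that carries membrane receptors into and out of the primary cilium, the antenna-like organelle of most neurons. BBS4 is another subunit, and loss of either protein causes Bardet-Biedl syndrome, in which obesity is a main feature. Neurons of the hypothalamus that regulate feeding bear cilia with receptors for neuropeptides.

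The 12-week libraries held 22379021 counts in B1, 24065544 in B3, 21574829 in B4, 24904546 in B5 and 22129437 in B6. Levels are given as CPM, TMM-scaled counts over a common library total, and are not corrected for transcript length. A count of 3, used as the floor of detection, equals between 0.120 and 0.140 CPM in these libraries. Values of the ages were scaled separately.

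The genotype label was checked first. *Bbs5*, the gene it names, was at 15.2 CPM in B1 and 13.4 in B3, and at 16.3 in B4, 13.5 in B5 and 12.0 in B6. Labelled library B4 was thus the highest of all 5 and B6 the lowest, and the groups overlapped. As a share of the WT mean the labelled libraries were at 114% (B4), 93.9% (B5) and 83.8% (B6). On the log2 scale the fold change was -0.041, with a standard error (SE) of 0.22 (adjusted p = 0.991, edgeR), and an exact permutation of the 5 libraries, which has 10 arrangements and cannot give a p below 0.1, gave a two-sided p of 0.9. In the labelled libraries of 5 weeks the same gene was at 38.4% (E4), 35.0% (E5) and 33.4% (E6) of its WT mean, and it was the only gene of 16023 past an adjusted p of 0.05 there by edgeR (0.00624% of genes, adjusted p = 0.00894), where DESeq2 called 392. That call was lost without E4 (adjusted p = 0.0517), with a log2 fold change of -1.55 against -1.49 with all 5 libraries. The label contrast of *Bbs5* at 12 weeks minus that at 5 weeks was 1.44 on the log2 scale, with an adjusted p of 0.409 by edgeR and of 0.00122 by DESeq2.

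*Bbs4*, which the label does not name, was lower in the labelled libraries. It was counted 1421 times in B1 and 1442 times in B3, but 16 times in B4, 733 times in B5 and 8 times in B6. These counts correspond to 66.4 and 60.4 CPM in WT and to 0.708 (B4), 29.4 (B5) and 0.360 CPM (B6) in the labelled libraries. B4 and B6 were at 1.12% and 0.567% of the WT mean and B5 at 46.4%, so the labelled libraries lay at different levels, all below both WT libraries. The exact 95% Poisson intervals, which cover counting error only and not stray reads, ran from 9.15 to 26.0 counts in B4 and from 3.45 to 15.8 counts in B6. In the deposited normalized values of the authors *Bbs4* stood at 68.2 and 62.2 in WT and at 0.686, 29.4 and 0.356 in B4, B5 and B6.

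Across the 3 labelled libraries the log2 fold change of *Bbs4* was -2.63 with an SE of 1.93 (adjusted p = 0.966), and the exact permutation gave a two-sided p of 0.2. It did not pass the threshold. Without B5 it was -6.88 with an SE of 0.39 (adjusted p = 8.23e-11), and this was the lowest value with any 1 library left out, the highest being -2.07. At 5 weeks *Bbs4* was at 68.6 and 76.4 CPM in WT, with 79.8, 77.5 and 79.3 CPM in the labelled libraries. Each labelled library of that age was thus slightly above both WT libraries. The difference between the ages, tested as an interaction over 10 libraries, was -2.76 on the log2 scale (adjusted p = 0.994). Without B5 it was -6.99 (adjusted p = 2.50e-06), and *Bbs4* was then the only gene called for this difference by edgeR. In the labelled libraries *Bbs5* was low at 5 weeks only and *Bbs4* at 12 weeks only. Age cannot be told apart from this in any comparison of the ages. For these reasons B4, B5 and B6 are called the labelled libraries throughout, every direction rests on the labels, and no library was moved to another group by its values.

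**Figure D1:**
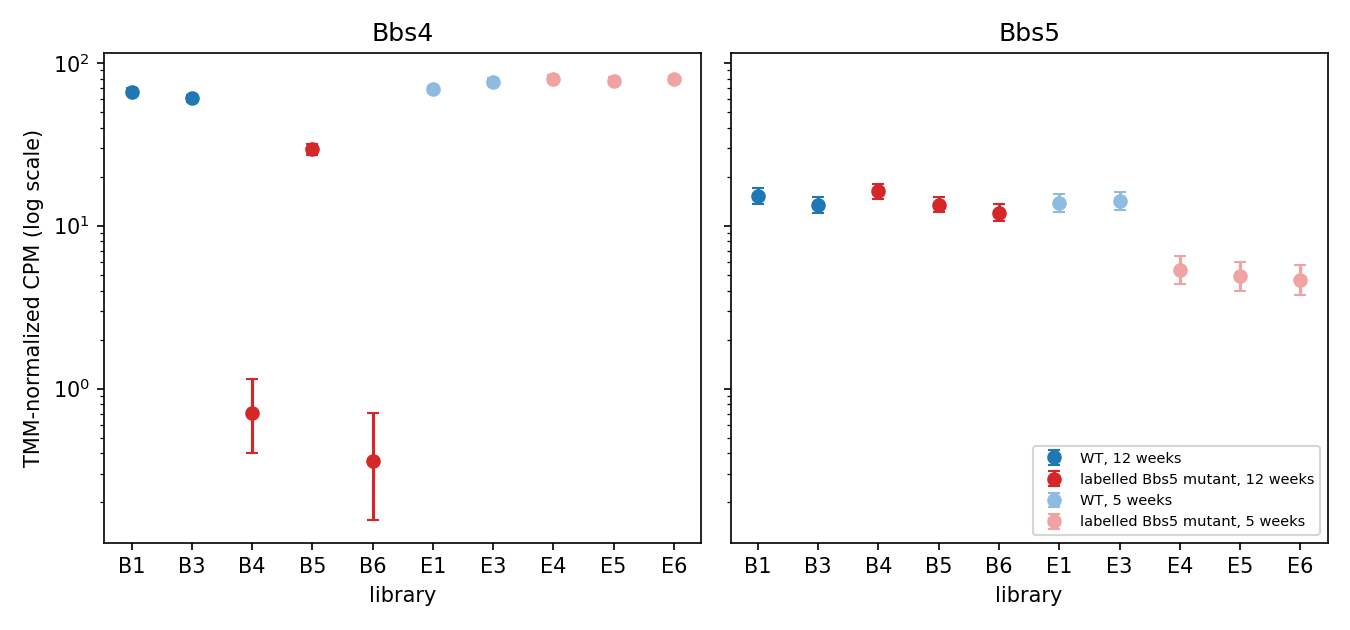
*Bbs4* (left) and *Bbs5* (right) in each of the 10 libraries, as TMM-normalized CPM on a log axis, with bars for the exact 95% Poisson interval of the count. *Bbs4* was at 0.708 CPM in B4, 29.4 in B5 and 0.360 in B6 against 66.4 and 60.4 in WT of that age, while *Bbs5* was at 16.3, 13.5 and 12.0 CPM in these 3 and between 4.66 and 5.37 CPM in the labelled libraries of 5 weeks.

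The other 6 BBSome subunits had log2 fold changes close to 0. *Bbs1*, the most abundant subunit in CPM, was at 73.2 and 72.0 CPM in WT, with 73.8, 75.2 and 76.5 CPM in B4, B5 and B6. It was non-overlapping, which means that every labelled library lay on 1 side of both WT libraries, as 8.21% of all genes tested were in the higher and 7.05% in the lower direction, but its log2 fold change was 0.05 with an SE of 0.16. *Bbs2*, *Bbs7*, *Ttc8*, *Bbs9* and *Bbip1* overlapped between the groups, with log2 fold changes between -0.21 (*Ttc8*) and 0.11 (*Bbip1*). Of all 8 subunits 2 were above 0 and 6 below, with a median of -0.06, or 0.04 without the WT library B1 and the labelled library B4. Over all 16258 genes tested the median was 0.00, with 8159 above and 8099 below 0.

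The chromosomal neighbours of both genes were read as well, 10 on each side in the RefSeq order. Of the 20 around *Bbs4*, 9 were above and 11 below 0 (median -0.06, or 0.00 without B1 and B4), 2 (10%) were non-overlapping and higher and 3 (15%) were non-overlapping and lower, which in a list of 20 is within 2 genes of the shares over all genes. The nearest on either side, *Adpgk* and *Arih1*, overlapped, at 28.6 and 30.1 CPM in WT against 27.9, 30.6 and 23.6 CPM for *Adpgk* and at 119 and 94.7 CPM against 59.2, 94.9 and 93.1 CPM for *Arih1*. The 2 that were higher were *Islr*, at 6.59 and 12.8 CPM in WT, with 13.7, 21.3 and 19.5 CPM in B4, B5 and B6, and *Pml*, while *Cd276*, *Nptn* and *Pkm* were lower. *Pkm*, which encodes a pyruvate kinase, was the most abundant of them, at 1456 and 1286 CPM in WT, with 869, 1159 and 1079 CPM in the labelled libraries. None of the 20 had a count pattern in which B4 and B6 were near 0. Of the 20 neighbours of *Bbs5*, 7 were above and 13 below 0 (median -0.05, or 0.05 without B1 and B4), and all overlapped between the groups.

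B1 and B4 stood apart from the other 3 libraries of this age. Across the genes tested, the Pearson correlation of log2(CPM + 1) was 0.995 between B3 and B5, 0.995 between B3 and B6 and 0.994 between B5 and B6. It was 0.980 or less for every pair that held B1 or B4, and lowest, at 0.966, between those 2. The genes are not independent replicates, and these values describe the libraries only. The first principal component, with 47% of the variance, placed B1 at -35.0 and B4 at 39.4 and the others between -2.17 and -0.56. B1 had the highest level of the 5 libraries for 30.5% of the genes and B4 for 30.8%, against 9.37% for B3, 15.6% for B5 and 13.7% for B6. One library of each group therefore lay at an end, and the biological coefficient of variation was 0.221, against 0.0889 at 5 weeks. Medians of gene lists are given with all 5 libraries and, where they turned sign or moved by over 1.5 times, also without B1 and B4, a choice made after seeing the data that leaves 1 WT library. With 1 library left out, all 17 list medians under 0.1 in size moved by over 1.5 times or turned sign, 13 of them turning sign, and no direction is read from them. Of the 22 medians of 0.1 or more 21 moved so and 7 turned sign, and for these the values are given with each such library left out.

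The tissue and sex labels were checked too. All 18 transcription factors of the hypothalamus on the list used could be tested, and *Nkx2-1*, which specifies this region, was at 76.7 and 78.9 CPM in WT, with 80.3, 56.3 and 85.4 CPM in the labelled libraries. Their median was -0.06, or -0.20 without B1 and B4, with 6 above and 12 below 0. Of the 18, 2 (11.1%) were non-overlapping and lower, near the 7.05% of all genes. Among them was *Sox14* at 10.2 and 10.3 CPM against 5.80, 8.75 and 8.68 CPM. The Y-linked genes *Ddx3y*, *Eif2s3y* and *Uty* were counted in every library, *Ddx3y* at 76.9 and 71.1 CPM in WT, with 35.3, 69.3 and 76.0 CPM in B4, B5 and B6. *Xist*, the transcript of the inactive X chromosome, stayed between 1.09 and 1.53 CPM. Over the 5 sex-linked genes the median was -0.16, with 1 above and 4 below 0, and it was 0.04 without B1, -0.34 without B3, -0.03 without B4, -0.11 without B6 and 0.09 without B1 and B4. Of 3 genes in which C57BL/6 substrains are known to differ, *Nnt* was at 27.5 and 22.1 CPM in WT, with 24.6, 34.5 and 22.8 CPM in the labelled libraries, and overlapped. *Crb1* overlapped too, and *Cyfip2* was non-overlapping and lower, at 1003 and 750 CPM in WT, with 409, 736 and 716 CPM in B4, B5 and B6, with B4 far below the rest. The median of the 3 genes, 0.13, turned negative without any 1 library but B4, at -0.06 without B1, -0.02 without B3, -0.07 without B5 and -0.01 without B6, and was 0.21 without B4.

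No gene passed an adjusted p of 0.05 in the comparison of the 3 labelled with the 2 WT libraries by edgeR (0 of 16258, 0%). At an unadjusted p under 0.05 there were 323 genes (1.99%), of which 223 (1.37%) were higher and 100 (0.615%) lower in the labelled libraries. DESeq2 called 4 genes (0.0246%), *Hbb-bs*, *Prg4*, *Gm5936* and *Hba-a2*. The smallest adjusted p by edgeR was 0.303, for *Hbb-bs*, and the next was 0.966. Leaving out B5 gave 9 genes, leaving out B6 3, leaving out B3 1 and leaving out B1 or B4 none. Without B1 and B4 together 2 genes passed, *Gfap* and *Hist2h3c1*, named after their values were seen.

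In 1334 genes (8.21%) every labelled library was above both WT libraries and in 1146 (7.05%) every one was below. B1 was the WT library farther from the labelled ones in 79.8% of the higher and 83.2% of the lower set, and B4 was the farthest labelled library in 56.5% and 65%. Where the nearest libraries of the groups had to be at least 1.2-fold apart, 235 higher and 69 lower genes were left. In the deposited values the balance turned, with 868 genes higher and 2103 lower. Of the 1334 and 1146 genes, 213 higher and 78 lower also had an unadjusted p under 0.05. Read in the mice of 5 weeks, which had no part in choosing them, 88 of the 198 of the 213 that could be tested were above 0 and 110 below, with 41 (20.7%) non-overlapping and lower and 22 (11.1%) non-overlapping and higher. Over all genes tested at 5 weeks 17.7% were non-overlapping and higher and 18.2% lower. Of the 78 lower genes 70 could be tested at 5 weeks, with 25 above and 45 below 0. Of these 70, 15 (21.4%) were non-overlapping and lower and 5 (7.14%) non-overlapping and higher. No gene passed the test of the difference between the ages by edgeR (0 of 16469, 0%), with 647 at an unadjusted p under 0.05, and DESeq2 called 13.

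The 12 genes with the largest log2 fold changes in the higher direction, among the non-overlapping ones with an unadjusted p under 0.05 and a mean of at least 1 CPM in the labelled group, were mostly of low abundance. The lower genes named below needed that mean in WT, so a gene could enter through its high group alone, and over all 5 libraries 2 of the 12 higher genes (*Gbp2b* and *F13a1*) and 4 of the 12 lower ones (*Tyms-ps*, *Kynu*, *Crp* and *Crh*) had a mean under 1 CPM. *Prg4* encodes lubricin, a secreted glycoprotein of joint surfaces and connective tissue. B1 and B3 held it at 1.22 and 1.76 CPM, and B4, B5 and B6 at 6.15, 18.2 and 8.68 CPM. B5 was the highest and the lowest labelled library was still above both WT libraries, with a log2 fold change of 2.88 and an SE of 0.50 (adjusted p = 0.966 by edgeR and 0.000388 by DESeq2). At 5 weeks the order was the opposite, at 8.99 and 15.9 CPM in WT, with 2.98, 5.83 and 2.99 CPM in the labelled libraries.

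*Cdh1*, the gene of the epithelial adhesion protein E-cadherin, was at 0.514 and 1.59 CPM in WT, with 2.17, 8.39 and 4.81 CPM in B4, B5 and B6. *Foxc2*, a transcription factor of mesenchyme and vessels, was at 0.374 and 1.59 CPM against 2.43, 7.51 and 2.65 CPM. In both, B5 was the highest and B1 the lowest of the 5 libraries. *F13a1*, the A subunit of coagulation factor XIII and a gene of tissue macrophages, was at 0.0468 and 0.335 CPM in WT, with 0.752, 1.45 and 1.08 CPM in the labelled libraries. *Mpzl2*, an adhesion protein, was at 0.374 and 1.13 CPM against 1.46, 3.61 and 2.74 CPM. *Hcar1*, the lactate receptor gene, was at 0.327 and 1.09 CPM against 1.77, 3.21 and 2.29 CPM. Over these 5 genes the log2 fold changes ran from 1.75 (*Hcar1*, SE 0.52) to 2.45 (*F13a1*, SE 0.68), and none passed the threshold. Together with *Prg4* they make 6 of the 12 that were non-overlapping and lower at 5 weeks, against 18.3% of all genes tested at both ages. Of the other leading higher genes 3 were non-overlapping and higher there, against 17.6% of all genes, 2 overlapped and 1 was not tested.

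*Hp*, which encodes haptoglobin, the plasma protein that binds free hemoglobin, was non-overlapping and higher at both ages. It was at 0.0935 and 0.209 CPM in WT, with 3.36, 0.562 and 1.75 CPM in B4, B5 and B6, a log2 fold change of 3.57 with an SE of 0.87, and at 5 weeks at 0.333 and 0.320 CPM against 0.895, 2.37 and 1.87 CPM. The keratin gene *Krt8* was likewise higher at both ages. Its levels were 0.935 and 1.72 CPM in WT, with 8.14, 2.73 and 4.95 CPM in the labelled libraries at 12 weeks, with B4 the highest, and 2.55 and 3.47 CPM against 3.93, 6.42 and 7.04 CPM at 5 weeks. *Igfbpl1*, a secreted protein of the family that binds insulin-like growth factors, was at 0.748 and 0.503 CPM in WT, with 1.77, 2.77 and 1.71 CPM in the labelled libraries. *Fgfbp1*, a carrier of fibroblast growth factors, was at 0.0935 and 1.17 CPM against 1.28, 2.97 and 2.11 CPM, so that B4 lay close to B3. Both overlapped between the groups at 5 weeks.

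The globin genes gave values in both directions and belong to near-identical copies between which counting could split reads, so each single value is uncertain. *Hba-a2* was at 2.52 and 6.41 CPM in WT, with 26.5, 15.8 and 13.3 CPM in B4, B5 and B6 (log2 fold change 2.05, SE 0.45). Its copy *Hba-a1*, far more abundant in CPM, was at 115 and 135 CPM against 313, 136 and 111 CPM, and the groups overlapped with B4 the highest. *Hbb-bs* was counted 100 and 56 times in WT and 0 times in each labelled library, at least 27.1-fold lower against the floor of 3 counts per library. At 5 weeks it was counted 0 times in both WT libraries and in E4 and E5, and 58 times in labelled library E6. *Hbb-bt*, its copy, was at 2.67 and 7.04 CPM in WT, with 13.6, 6.91 and 5.80 CPM in the labelled libraries, and overlapped. *Alas2*, the enzyme of heme synthesis in red blood cell precursors, was at 2.90 and 3.69 CPM against 6.28, 4.38 and 3.82 CPM. Of 6 red blood cell genes 5 could be tested, with 4 above and 1 below 0. Of the 5, 2 (40%) were non-overlapping and higher and 1 (20%) lower, against 8.21% and 7.05% of all genes. Their median was 0.58, or 0.32 without B4 and -0.12 without B1 and B4. Their summed level was 128 and 154 CPM in WT, with 359, 163 and 135 CPM in the labelled libraries, so that it was B4 that stood out, and its part in the values of single globin genes was not tested.

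Another 3 genes had groups at or near 0 and lie in families of close copies. *Gm5936*, a predicted gene, was counted 0 times in both WT libraries and 38, 25 and 15 times in B4, B5 and B6, at least 8.42-fold higher against the floor, and DESeq2 called it (adjusted p = 0.00248). At 5 weeks it was at 1.50 and 1.07 CPM in WT and at 0 in all 3 labelled libraries. *Gbp2b*, a guanylate-binding protein gene induced by interferon, was counted 0 times in WT and 41, 53 and 1 times in the labelled libraries, so B6 was under the floor. *H2-Q9*, of the class I MHC region, was counted at 0 in WT and above the floor in all labelled libraries, at least 4.70-fold higher.

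In the lower direction the leading genes were headed by such copies as well. *Tmem254c*, with near-identical neighbours, was at 29.4 and 5.53 CPM in WT, with 0, 3.25 and 1.03 CPM in B4, B5 and B6. *Duxbl1*, a homeobox gene in a repeated block, was at 3.83 and 1.88 CPM against 0, 0.683 and 1.03 CPM and was lower at 5 weeks too, at 1.50 and 2.35 CPM against 0.994, 1.09 and 0.760 CPM. The readthrough gene *Slc10a3-ubl4* was at 2.38 and 2.43 CPM in WT, with 0.664, 1.24 and 1.26 CPM in the labelled libraries, while at 5 weeks it was at 0 in WT and 0.746, 0.247 and 0.811 CPM in the labelled ones. For all 3 the sharing of reads between copies or overlapping genes leaves the level uncertain. *Tyms-ps*, a pseudogene, was at 1.92 and 1.05 CPM in WT against 0.531, 0.442 and 0.630 CPM.

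*Npy*, the neuropeptide that drives feeding from the arcuate nucleus, was the most abundant of the 12 leading lower genes in CPM. It was at 99.4 CPM in B1 and 46.2 in B3 and at 45.8, 24.4 and 29.9 CPM in B4, B5 and B6. B4 lay just under B3, so the gap between the groups was small beside the spread within WT, and the log2 fold change was -1.13 with an SE of 0.35. It was -0.47 without B1 and -0.77 without B1 and B4. It was non-overlapping and lower at 5 weeks too, at 91.0 and 67.7 CPM in WT, with 47.5, 57.6 and 33.7 CPM in the labelled libraries. *Crh*, corticotropin-releasing hormone, was at 1.26 and 1.55 CPM against 0.841, 0.562 and 0.540 CPM (log2 fold change -1.12, SE 0.40). At 5 weeks every labelled library was above both WT libraries for *Crh*, at 7.76, 4.10 and 10.4 CPM against 3.22 and 3.52 CPM.

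*Meis2*, a homeobox transcription factor, was at 25.9 and 8.42 CPM in WT, with 7.48, 4.66 and 4.90 CPM in B4, B5 and B6, with B1 far above the rest. Its log2 fold change of -1.60 had an SE of 0.44 and was -0.57 without B1 and -0.81 without B1 and B4, and at 5 weeks the groups overlapped. *Neurod2*, a transcription factor of cortical excitatory neurons, was at 1.26 and 2.26 CPM against 0.664, 1.04 and 0.675 CPM. *Kynu*, an enzyme of tryptophan breakdown, was at 1.78 and 0.712 CPM in WT, with 0.664, 0.321 and 0.540 CPM in the labelled libraries. *Crp*, C-reactive protein, was at 1.36 and 0.838 CPM against 0.664, 0.482 and 0.225 CPM. *Ceacam2*, an adhesion molecule gene, was at 4.07 and 2.01 CPM against 1.50, 1.12 and 1.62 CPM. None of these genes passed the threshold. The 24 leading genes kept the sign of their log2 fold change in all 334 values from the alternatives tried, a direction that their choice as non-overlapping genes largely fixes. The size was less stable, since 12 of the 24 moved by over 1.5 times with 1 library left out, 8 of them without B1, 6 without B3 and 1 without B5, and 9 moved so without B1 and B4. The log2 fold change of *Tmem254c* went from -3.59 to -1.93 without B1, that of *Kynu* from -1.28 to -0.49 and that of *Ceacam2* from -1.10 to -0.51, while that of *Fgfbp1* went from 1.71 to 0.86 without B1 and to 4.42 without B3. Without B1 and B4, *Krt8* went from 1.98 to 1.15 and *Hba-a2* from 2.05 to 1.19. In 10 of the 12 higher genes B1 was the lower WT library, with a tie at 0 for *Gbp2b*, and in 9 of the 12 B5 was the highest labelled library.

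**Figure D2:**
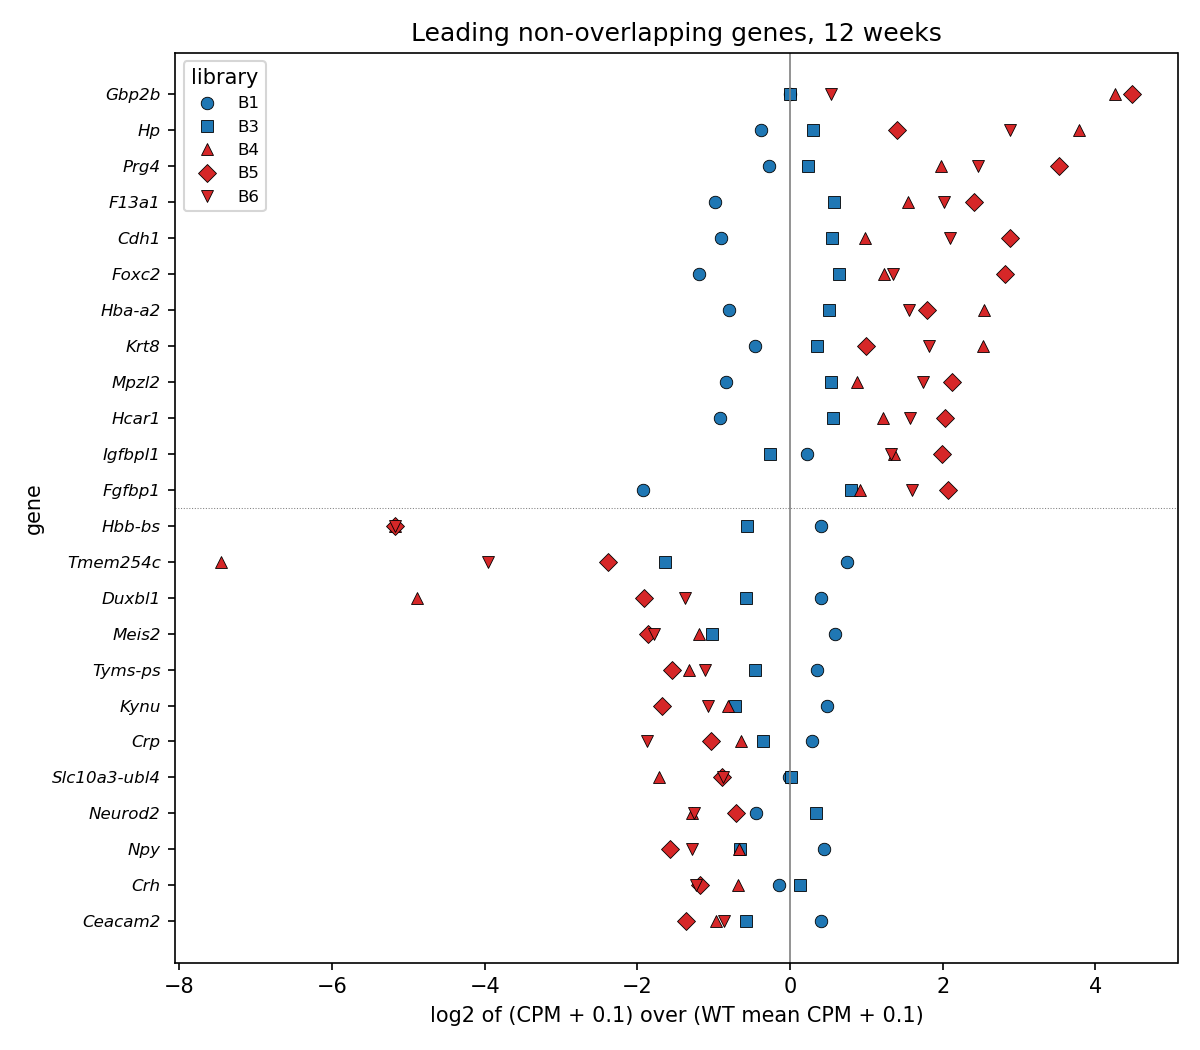
The 24 leading non-overlapping genes of the 12-week comparison, 12 higher and 12 lower, with each library drawn as the log2 of (CPM + 0.1) over (mean WT CPM + 0.1), WT in blue and labelled libraries in red. For *Npy*, at 99.4 and 46.2 CPM in WT, labelled library B4 sits beside WT library B3, whereas for *Prg4* all 3 labelled libraries, at 6.15, 18.2 and 8.68 CPM, are clear of both WT libraries.

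Genes that serve the BBSome and the cilium were read as groups, and no member of any group in this report passed the threshold by edgeR with all 5 libraries, while DESeq2 called the red blood cell genes *Hbb-bs* and *Hba-a2*. Of 10 genes of BBSome assembly and entry into the cilium 4 were above and 6 below 0 (median -0.05, or -0.01 without B1 and B4). The 2 non-overlapping ones (20%), both higher, were chaperonin-like genes, against 8.21% of all genes that were higher so. *Mkks* was at 14.4 and 14.2 CPM in WT, with 19.4, 15.5 and 17.4 CPM in B4, B5 and B6, and *Bbs10* at 4.96 and 6.20 CPM against 7.12, 6.22 and 7.91 CPM. Of 16 genes of the transition zone, the gate at the base of the cilium, and other genes of the syndrome, 13 were above and 3 below 0 (median 0.08). Of these 16, 4 (25%) were non-overlapping and higher, against 8.21% of all genes. Among them *Mks1* was at 13.0 and 13.1 CPM in WT, with 22.6, 17.0 and 13.8 CPM in the labelled libraries, and *B9d2* at 9.68 and 13.3 CPM against 20.1, 14.8 and 13.7 CPM, with B4 the highest in both. The 28 genes of intraflagellar transport, which moves cargo along the cilium, had 17 above and 11 below 0 (median 0.02, or 0.03 without B1 and B4) and 3 non-overlapping and higher (10.7%, against 8.21% of all genes), among them *Ift27*, at 12.7 and 17.7 CPM against 20.2, 18.0 and 17.8 CPM.

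Of 14 tested genes of ciliary receptors and signaling 8 were above and 6 below 0 (median 0.03, or 0.00 without B1 and B4). Of these 14, 1 (7.14%) was non-overlapping and higher and 2 (14.3%) lower, against 8.21% and 7.05% of all genes. *Tulp3*, the adaptor that brings receptors into cilia, was non-overlapping and higher, at 30.2 and 29.7 CPM in WT, with 36.6, 34.5 and 32.8 CPM in B4, B5 and B6. *Adcy3*, the adenylyl cyclase of neuronal cilia, overlapped at 86.9 and 118 CPM against 73.0, 122 and 114 CPM. The 13 genes of the Hedgehog pathway, which signals through the cilium, had 9 above and 4 below 0 and a median of 0.12, which was -0.03 without B1, 0.36 without B3, 0.04 without B5 and 0.00 without B1 and B4. Its coreceptor gene *Gas1* was non-overlapping and higher, at 6.17 and 7.79 CPM against 8.14, 12.9 and 9.44 CPM, while its target *Ptch1* ranged from 23.3 CPM in B4 to 98.2 CPM in B5.

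The 32 neuropeptide precursors had 19 above and 13 below 0 and a median of 0.02, which was -0.27 without B1 and B4. Of the 32, 4 (12.5%) were non-overlapping and lower, *Npy* and *Crh* among them, against 7.05% of all genes. *Avp*, the precursor of vasopressin and the most abundant of the list in CPM, was at 214 and 291 CPM in WT, with 620, 252 and 311 CPM in the labelled libraries, with B4 at a level of its own. *Gnrh1*, gonadotropin-releasing hormone, was at 3.83 and 1.42 CPM against 1.55, 0.763 and 1.08 CPM and *Nms*, neuromedin S, at 1.36 and 0.377 CPM against 1.19, 2.61 and 2.16 CPM, and both overlapped. Of 28 receptors of feeding signals 11 were above and 17 below 0, with a median of -0.12 that was 0.00 without B4, -0.19 without B5 and 0.05 without B1 and B4. Of these 28, 1 (3.57%) was non-overlapping and higher and 3 (10.7%) lower, against 8.21% and 7.05% of all genes. *Mc4r*, the melanocortin receptor through which satiety signals act, was at 4.96 and 4.40 CPM in WT, with 3.58, 2.45 and 3.42 CPM in B4, B5 and B6. *Cckbr*, a cholecystokinin receptor gene, had B4 at 18.4 CPM just under B3 at 18.6 CPM. The 17 genes of leptin and insulin signal transduction had 8 above and 9 below 0 (median -0.04, or 0.06 without B1 and B4) and none was non-overlapping. *Socs3*, the feedback inhibitor of the leptin receptor, was at 5.33 and 8.21 CPM in WT, with 15.7, 6.83 and 12.0 CPM in the labelled libraries.

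Genes that respond quickly to activity or hormones were mostly above 0. Of 18 immediate early genes 17 were above and 1 below 0, with a median of 0.28. Of these 18, 3 (16.7%) were non-overlapping and higher, against 8.21% of all genes. *Junb*, a subunit of the AP-1 transcription factor, was at 14.9 and 16.7 CPM in WT, with 38.2, 22.6 and 21.5 CPM in B4, B5 and B6, and *Btg2*, an inhibitor of proliferation, at 6.36 and 10.1 CPM against 11.0, 12.0 and 15.8 CPM. *Fos*, used as a marker of recent neuronal activity, overlapped at 11.0 and 3.94 CPM against 14.5, 11.0 and 12.6 CPM. Leaving out 1 library gave medians of 0.23 to 0.38, and the median was 0.37 without B1 and B4. At 5 weeks the list had 1 above and 17 below 0 (median -0.47), where WT library E1 held *Fos* at 60.8 CPM against 6.56 CPM in E3. Of 10 genes induced by glucocorticoids 6 were above and 4 below 0 (median 0.23, or 0.12 without B1, 0.15 without B4 and 0.11 without B1 and B4). The 4 non-overlapping ones (40%) were all higher, against 8.21% of all genes. Among them was *Nfkbia*, the inhibitor of NF-kB, at 10.7 and 13.4 CPM in WT, with 20.6, 15.2 and 16.6 CPM in the labelled libraries. At 5 weeks the glucocorticoid list had 0 above and 10 below 0 (median -0.17). Of the 10, 4 were non-overlapping and lower there, against 18.2% of all genes at that age. The 15 clock genes had 9 above and 6 below 0 (median 0.02, or 0.06 without B1 and B4), with *Dbp*, an output of the clock, non-overlapping at 62.7 and 65.0 CPM against 96.1, 68.6 and 66.7 CPM.

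More immune genes were above 0 than below. Of 16 MHC and interferon-induced genes 14 were above and 2 below 0, with a median of 0.45. Of these 16, 5 (31.2%) were non-overlapping and higher, against 8.21% of all genes. The median was 0.20 without B1, 0.89 without B3, 0.28 without B5 and 0.17 without B1 and B4. In that last setting 14 of the 16 were above 0, a count that need not hold the same genes. At 5 weeks the list had 3 above and 13 below 0 (median -0.13). Of the 16, 5 were non-overlapping and lower there, against 18.2% of all genes at that age. *Ifit3*, an antiviral gene, was at 11.1 CPM in both WT libraries and 16.2, 14.1 and 13.1 CPM in B4, B5 and B6. *B2m*, the light chain of class I MHC and the most abundant of the list in CPM, was at 121 CPM in B1 and at 63.3 CPM in B3, 78.1 in B4, 69.5 in B5 and 57.3 in B6. Only 7 of 12 genes of hypothalamic inflammation could be tested, with 5 above and 2 below 0. Their median of 0.27 was 0.57 without B1, 0.83 without B3, 0.41 without B4, 0.06 without B5, 0.18 without B6 and 0.41 without B1 and B4. The genes that could be tested changed too, with 8 without B1 or B3 and 5 without B5 or B6, so these medians are not all over the same genes. *Ptgs2*, the inducible cyclooxygenase, was non-overlapping and higher at 0.281 and 0.126 CPM against 0.310, 1.33 and 0.630 CPM, and *Ikbkb*, a kinase of the NF-kB pathway and the most abundant of the list in CPM, was non-overlapping and lower at 49.3 and 47.5 CPM against 46.1, 47.4 and 42.2 CPM. The 12 genes of cholesterol synthesis had 2 above and 10 below 0 (median -0.09, or -0.02 without B1 and B4) and all overlapped.

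Markers of cell types were read for their levels in each library. In bulk tissue, fewer cells of a type and less RNA of its genes per cell cannot be told apart. All 12 genes of the leptomeninges, the thin membranes on the brain's surface, were above 0, with a median of 1.33. Non-overlapping and higher were 4 (33.3%), against 8.21% of all genes. The summed level of the 12 was 88.6 CPM in B1 and 270 in B3, and 193, 585 and 380 CPM in B4, B5 and B6. The groups thus overlapped in the sum and B1 was the lowest. *Igf2*, the most abundant of them in CPM, was at 42.8 and 123 CPM against 63.7, 245 and 153 CPM, and *Aldh1a2*, an enzyme of retinoic acid synthesis, at 2.76 and 6.99 CPM against 11.9, 22.4 and 13.8 CPM. The median was 0.70 without B1, 2.27 without B3, 0.87 without B5 and 0.97 without B1 and B4. At 5 weeks all 12 were non-overlapping and lower (median -1.05), against 18.2% of all genes at that age. The sum was highest in B5 and lowest in B1, as were *Prg4*, *Cdh1*, *Foxc2* and other leading genes, and the part of this tissue in their values was not tested. In the dissection, the meninges were parted from the brain before it was sliced and punched.

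All 10 genes of ependyma and tanycytes, the cells that line the third ventricle, were above 0, with a median of 0.55. Of these 3 (30%) were non-overlapping and higher, against 8.21% of all genes. The summed level of the 10 was 204 and 271 CPM in WT, with 380, 290 and 351 CPM in the labelled libraries, which did not overlap. *Col23a1*, the most abundant in CPM, was at 59.2 and 80.9 CPM against 96.8, 87.3 and 122 CPM, and *Vim*, the intermediate filament vimentin, at 47.3 and 57.2 CPM against 88.2, 72.5 and 73.9 CPM. The median was 0.32 without B1 and 0.09 without B1 and B4. The ciliated ependymal gene *Ccdc153* was at 8.46 and 13.9 CPM in WT, with 22.5, 12.6 and 17.9 CPM in the labelled libraries, and overlapped. The cilium genes described above include some that this cell type expresses, and its part in their values was not tested.

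Of 11 microglial genes 10 were above and 1 below 0 (median 0.29), with sums of 242 and 391 CPM in WT, with 427, 386 and 361 CPM in B4, B5 and B6. B1 alone was low and all 11 genes overlapped, the complement gene *C1qa* at 21.9 and 35.2 CPM against 45.5, 33.3 and 33.5 CPM. The median was 0.03 without B1, 0.62 without B3 and -0.07 without B1 and B4. The 10 neuronal markers had 3 above and 7 below 0 (median -0.20, or -0.03 without B1, -0.33 without B3 and -0.04 without B1 and B4) and sums of 6108 CPM in B1 and between 4310 and 4543 CPM in the other 4 libraries. *Snap25*, of the synaptic vesicle fusion machinery and the most abundant of these markers in CPM, was at 1847 CPM in B1 and 937 in B3, and at 959, 799 and 916 CPM in the labelled libraries. Of 30 synaptic genes 2 were above and 28 below 0 (median -0.17, or -0.06 without B1, -0.32 without B3 and -0.29 without B6). Of these 30, 5 (16.7%) were non-overlapping and lower, against 7.05% of all genes. *Syn1*, synapsin I, was at 969 and 578 CPM against 469, 525 and 520 CPM. B1 was far above the other libraries for *Syn1*, and without B1 and B4 the median of the synaptic genes was 0.00, with 15 of 30 above 0.

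The remaining cell types had medians between -0.19 and 0.11. Astrocyte genes had 7 above and 3 below 0 (median 0.11, or 0.02 without B3), with *Gfap* at 244 CPM in B1 but 98.8 in B3 and at 249, 203 and 193 CPM in the labelled libraries. Oligodendrocyte genes had 2 above and 10 below 0 (median -0.19, or 0.07 without B1, -0.44 without B3, -0.11 without B6 and 0.03 without B1 and B4), their precursors 5 above and 1 below 0 (median 0.02, or 0.11 without B1 and B4). Endothelial genes had 3 above and 7 below 0 (median -0.06, or 0.03 without B1 and B4), with *Pecam1* non-overlapping and lower at 25.3 and 22.4 CPM in WT against 15.4, 19.6 and 19.2 CPM. Mural cell genes had 5 above and 3 below 0 (median 0.09, or -0.02 without B1, 0.42 without B3, 0.18 without B4, -0.05 without B5 and 0.15 without B6), and *Vtn*, vitronectin, was non-overlapping and higher at 48.7 and 69.9 CPM against 78.2, 99.1 and 71.5 CPM. Of 9 choroid plexus genes tested 3 were above and 6 below 0 (median -0.08, or -0.03 without B1, 0.13 without B3, 0.08 without B4, -0.25 without B5, -0.01 without B6 and 0.10 without B1 and B4), and *Ttr*, which defines that tissue, was at 4.77 CPM or less in all 5 libraries. The 2 non-overlapping ones (22.2%) were both higher, against 8.21% of all genes. They were the potassium channel gene *Kcnj13* at 0.281 and 1.01 CPM in WT against 1.06, 2.45 and 1.39 CPM and the transcription factor *Otx2* at 0.140 and 0.586 CPM against 0.796, 0.642 and 1.66 CPM, with log2 fold changes of 1.33 (SE 0.59) and 1.46 (SE 0.67).

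**Figure D3:**
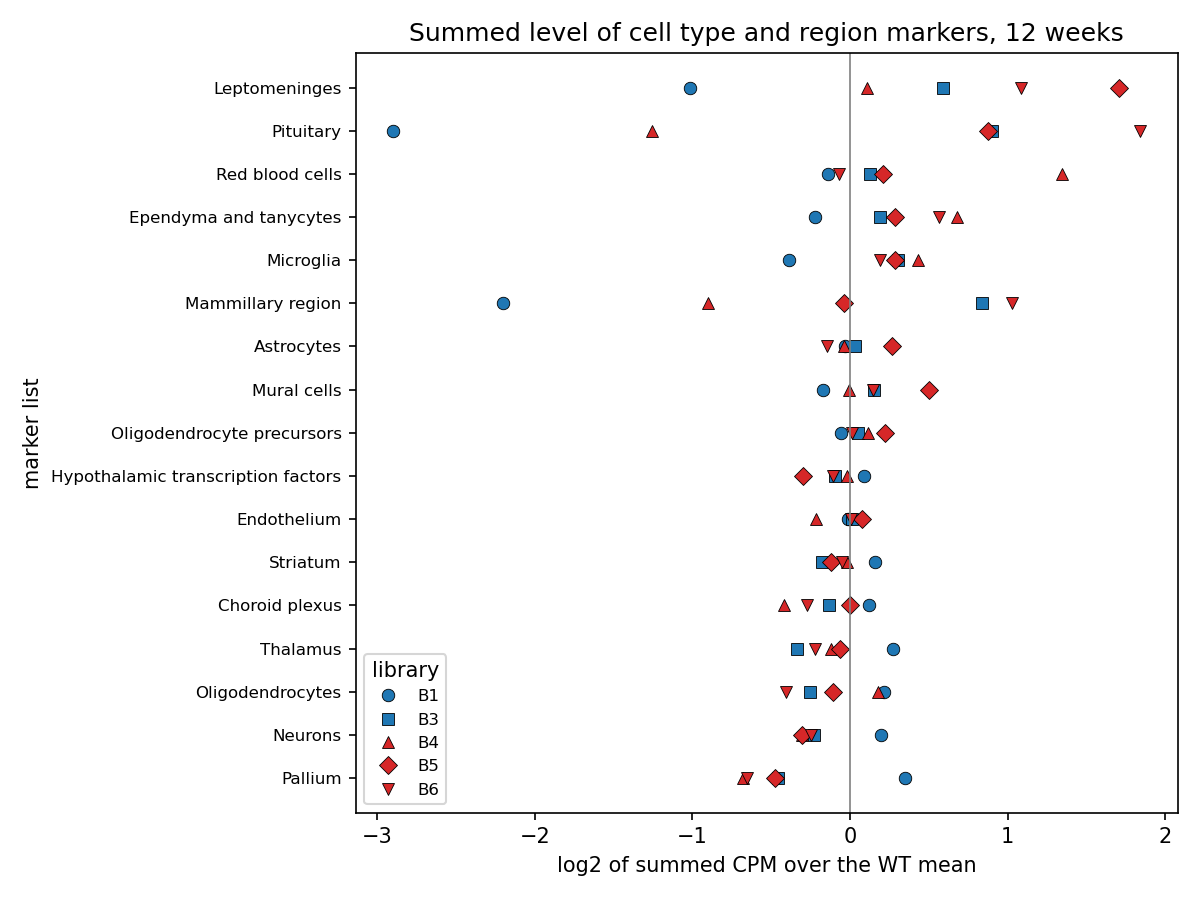
Summed CPM of the markers of 17 cell types and regions in each 12-week library, as the log2 of the ratio to the mean of the WT libraries, WT in blue and labelled libraries in red. The leptomeningeal sum was 88.6 CPM in B1 and 585 CPM in B5, and the sum for ependyma and tanycytes was 204 and 271 CPM in WT, with 380, 290 and 351 CPM in B4, B5 and B6.

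Genes of neighbouring regions were read in the same way. The sum over 5 genes of the mammillary region, at the back of the hypothalamus, was 6.59 CPM in B1 and 54.2 in B3, and 16.3, 29.6 and 62.0 CPM in B4, B5 and B6, with 4 above and 1 below 0. Their median of 0.27 was -0.54 without B1, 2.65 without B3, 0.56 without B4, -0.16 without B6 and -0.31 without B1 and B4. *Foxb1*, its most abundant gene in CPM, ran from 3.65 CPM in B1 to 38.1 CPM in B6. Of 7 genes of the pallium tested, 1 was above and 6 below 0 (median -1.09), with *Tbr1* at 2.43 CPM in B1 and between 0.586 and 0.683 CPM in the other 4 libraries. The pallial median was -0.06 without B1 and 0.02 without B1 and B4. Striatal genes had 2 above and 5 below 0 (median -0.08, or -0.04 without B1 and B4) and thalamic genes 3 above and 5 below 0 (median -0.11, or 0.05 without B1, -0.29 without B3, 0.04 without B4, -0.19 without B5 and 0.17 without B1 and B4). *Rgs16*, on the thalamic list and also under control of the clock, was non-overlapping and higher at 31.2 and 18.0 CPM against 31.6, 50.3 and 34.8 CPM. Of 6 pituitary genes 3 could be tested, all above 0 (median 0.91), but the median was -0.06 without B1, with 1 of 3 above 0, and 3.19 without B3, where 4 genes were tested, 1.42 without B4, 0.14 without B6 and 0.46 without B1 and B4. *Cga*, the shared subunit of the glycoprotein hormones, was at 0.281 CPM in B1, 12.9 in B3 and 1.64, 13.0 and 22.8 CPM in B4, B5 and B6. *Prl*, prolactin, was at 0 in all 5.

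Genes of the respiratory chain and the ribosome were highest in sum in B4. Of 89 tested respiratory chain genes 65 were above and 24 below 0 (median 0.17), with 6 (6.74%) non-overlapping and higher and 2 (2.25%) lower, both below the shares over all genes. Their sum was 9675 CPM in B4 and between 7814 and 8242 CPM in the other libraries. *Ndufb11*, a subunit of complex I, was at 41.6 and 64.4 CPM in WT, with 93.5, 65.4 and 67.5 CPM in B4, B5 and B6, so that B5 and B6 lay just above B3. Of 83 tested ribosomal protein genes 67 were above and 16 below 0 (median 0.22), with 3 (3.61%) non-overlapping and higher, also below that share. Their sum was 20250 CPM in B4 and between 14299 and 15420 CPM in the others, and *Rps29* was at 93.8 and 174 CPM in WT, with 272, 166 and 179 CPM in the labelled libraries. Without B4 the medians were 0.01 and 0.03, and without B1 and B4 they were -0.06 and -0.04. That of the respiratory chain was also 0.27 without B3, 0.25 without B5 and 0.28 without B6.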

How the data were processed

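RNA of 10 mouse hypothalamus samples was measured by single-read sequencing, and 5 libraries of 12 weeks and 5 of 5 weeks were used. The authors deposited RSEM expected counts, estimated counts per gene symbol without normalization, and for 12 weeks a table of TMM-normalized values, deposited as a signal whose column totals are unequal. The 5 per-sample columns of the deposited normalized table of 5 weeks, and the fold change, p and FDR columns beside them, were not used. The methods name TopHat, Bowtie, a human build (GRCh38) and featureCounts, while the counts are named as RSEM's. The build behind the counts is not stated, so no positions are given, and RefSeq's annotation of GRCm38.p6 gave the gene order.

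Expected counts were rounded to whole numbers, filtered with filterByExpr and scaled by TMM. The groups of each age, taken from the labels, were compared by the quasi-likelihood test of edgeR (robust, calls at a Benjamini-Hochberg adjusted p under 0.05), and the ages by an interaction over 10 libraries. No batch is named in the labels, and one that follows age cannot be told apart from it. The same holds for the *Bbs4* and *Bbs5* levels of the labelled libraries, which differed by age. Tools were DESeq2 1.42.0, limma 3.58.1 and edgeR 4.0.16 under R 4.3.3, and the main test was tested on simulated data. The SE is the absolute log2 fold change over the root of the F statistic. Totals ran from 18013161 to 24904546 counts per library. Floors and intervals cover counting error only.

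Genes named were the 8 BBSome subunits, in each direction up to 12 non-overlapping genes, taken by the size of their log2 fold change, at an unadjusted p under 0.05 and a mean of at least 1 CPM in the group where the gene was higher (without predicted, Rik and date-like symbols), for each list up to 4 members with the smallest p and the most abundant member, and any gene called by edgeR or DESeq2. Others were chosen after their values were seen. The 39 lists are described by counts and medians of the log2 fold changes, with no set test. Members, rule and lists were chosen with earlier results of these data known. Alternatives were DESeq2's likelihood ratio test, RLE factors, library size only, no filter, all groups in 1 fit, no robust estimates, limma-trend on the deposited values with 1 or 0.1 added, a 1.2-fold gap and each library left out. B1 and B4 were left out together as an alternative chosen after seeing the data.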

Additional observations from a re-analysis of the deposited data

Results flagged for a closer look

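The results here are genes whose labelled libraries all lay on 1 side of WT at 12 weeks and all on the other side at 5 weeks. An interaction term over 10 libraries tested this difference. Age cannot be told apart here from the *Bbs4* and *Bbs5* levels, which differed between the labelled libraries of the ages. No gene passed an adjusted p of 0.05 by edgeR, where 647 genes had an unadjusted p under 0.05. DESeq2 called 13, among them *Gm5936*, *Prg4*, *Aldh1a2*, *Slc10a3-ubl4* and *Cdh1*. The 198 named genes include ones that overlapped at 12 weeks, so their count has another base than the shares that follow. Of the 198, 22 showed this pattern, 8 of them among the 24 leading genes. Over all genes, it was shown by 168 (12.9%) of the 1298 higher and 71 (6.32%) of the 1123 lower non-overlapping genes that could be tested at 5 weeks, below the 18.3% lower and 17.6% higher there among all genes tested at 12 weeks. The same direction at both ages was shown by 224 (17.3%) and 251 (22.4%) of them. The log2 fold change at 12 weeks minus that at 5 weeks was 4.53 for *Prg4*, 3.56 for *Cdh1*, 3.15 for *Hcar1*, 3.06 for *F13a1*, 3.01 for *Foxc2* and 2.75 for *Mpzl2*. Among markers of leptomeninges it was 3.00 for *Aldh1a2*, 2.28 for *Slc6a13* and 1.16 for *Mgp*. It was 2.83 for *Kcnj13* of the choroid plexus, 1.08 for *Col23a1* and 0.88 for *Vim* of ependyma and tanycytes, and 1.06 for *Vtn* of mural cells. *Islr*, a neighbour of *Bbs4*, had 1.82, *Sult1a1* of the glucocorticoid list 0.79, *Ifi27* 1.11 and *H2-D1* 0.59. The genes lower at 12 weeks and higher at 5 weeks were *Bbs4* with -2.76, *Crh* with -2.26, *Cckbr* with -0.67 and *Slc10a3-ubl4*. For *Gm5936* and *Slc10a3-ubl4*, which have a group at 0, the mean of the labelled libraries at 12 weeks was 1.12 and 1.06 CPM. The levels of the leptomeningeal list were given with the markers of cell types, and their part in these differences was not tested.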

How the results depend on the processing

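Over 196 named genes other than *Bbs4* and *Bbs5*, 2591 values under the alternatives kept direction and side of the threshold, 132 changed sign (36 without B1, 49 without B1 and B4) and 15 were past it. Of the list medians 265 moved by less than 1 SD between libraries of a group and 47 by more, which is another bound than the 1.5 times used above. Where a value below moved, the cause was not tested. Against 0 genes called at 12 weeks, DESeq2 gave 4, no filter 1 and limma-trend with 0.1 added 1 (both *Hbb-bs*), leaving out 1 library 0 to 9 (9 without B5, 3 without B6, 1 without B3), and leaving out B1 and B4, chosen after seeing the data, 2. The log2 fold change of *Bbs5* was 0.027 with library size only and -0.17 to 0.054 with 1 library left out. That of *Bbs4* was -6.88 to -2.07, and it passed the threshold only without B5. Higher non-overlapping genes numbered 868 in the deposited values, 235 with the 1.2-fold gap, 2183 to 5368 with 1 library left out and 5436 without B1 and B4. Lower ones numbered 738 with library size only, 2103 in the deposited values, 69 with the gap, 1983 to 5281 with 1 library left out and 5198 without B1 and B4. Fewer libraries make non-overlap easier. The share of non-overlapping genes that was higher moved from 53.8% to 71% with library size only, 29.2% in the deposited values and 77.3% with the gap. At 5 weeks, against 1, DESeq2 called 392 genes, no filter 263 and leave-outs 1 to 160. For the difference between ages, against 0, DESeq2 called 13, no filter 1 and leave-outs 0 to 113 (113 without B3, and *Bbs4* alone without B5). Without B1 or B3 the lone WT library is assumed to vary like the labelled ones. No paired analysis was possible because the WT and labelled libraries share no number.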

Other observations

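*Zfp457*, a zinc finger gene, was called only without B3, where it was counted 1050 times in B1, 40 in B3 and 63, 66 and 72 times in B4, B5 and B6. *Trpc2* was counted 0 times in B1, B3 and B5, 48 times in B4 and 24 times in B6. *DXBay18* was counted 34 and 18 times in WT, 119 times in B5 and 0 times in B4 and B6. In *Trpc2* and *DXBay18*, as in *Bbs4*, B5 was apart from B4 and B6. They were called only without B5, a setting that favours genes in which B5 lies apart, so the shared pattern is no separate result. *Hist2h3c1* was counted 111 times in B5 and 65 times in B6 and 0 times in the other 3 libraries. These genes were chosen after their values were seen.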
